A study of Mus musculus with 2 samples.

Results

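The interferon-stimulated effector genes of the IFIT family (Ifit1, Ifit2, Ifit3 and Ifit3b), the MX family (Mx1 and Mx2), Rsad2, which encodes viperin, and its chromosomal neighbour Cmpk2 were measured in the nucleoplasm of mouse macrophages. The 8 genes were taken by symbol from 55536 annotated genes, and all 8 had counts in each library. Macrophages grown from the bone marrow of C57BL/6J mice, a common inbred strain, received 100 ng/ml Lipid A for 12 h, spent 12 h after washout without it, and were given 100 ng/ml again for 30 min. Lipid A is the part of bacterial lipopolysaccharide that Toll-like receptor 4 recognises. After ribosomal RNA depletion, nucleoplasmic RNA was sequenced in 2 libraries of this 1 condition, replicates 1 and 2, which started from 1 µg and 500 ng RNA with a size range of 250 to 400. A label field calls the fraction nucleoplasmic and another nuclear. The replicates carry separate biosample labels and the same donor label, and neither sex nor age was recorded. The sources used here do not say whether separate mice or cultures stand behind them, so their spread may be technical. Untreated cells, cells without the second dose and cytoplasmic RNA were not analysed here, so the values below are levels after the whole treatment and show no induction.

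Cells that sense lipopolysaccharide through Toll-like receptor 4 can make interferon beta through the adaptor TRIF and the factor IRF3. Interferon binds its receptor on the same or nearby cells, the kinases JAK1 and TYK2 become active, and the transcription factor complex ISGF3, which contains IRF9, forms and binds interferon-stimulated response elements in promoters. The genes described here are among the classical targets of ISGF3. IFIT proteins bind viral RNA or other IFIT proteins, MX proteins are dynamin-like GTPases that trap viral ribonucleoproteins, and viperin makes a chain-terminating nucleotide from CTP, which the kinase encoded by Cmpk2 is thought to help supply.

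Replicate 1 had 23845991 counts in genes and replicate 2 had 20675294. A gene with a count of 0 could hold up to 3 counts, which is 0.126 CPM (counts scaled to the library total, not corrected for length) in replicate 1 and 0.145 CPM in replicate 2. The macrophage label was met by the marker genes. Each of 10 macrophage markers reached 10 TPM (a level corrected for transcript length and scaled to a fixed library total) in both libraries. Their medians were 112 and 126 TPM. In both libraries, 10 TPM was reached by 25.9% of protein-coding genes with a value above 0 in both. Lists of 6 markers each for conventional dendritic cells, neutrophils, T and NK cells, B cells and fibroblasts summed to at most 1.77 TPM in replicate 1 and 3.27 TPM in replicate 2. The plasmacytoid dendritic cell list summed to 29.4 and 32.3 TPM, of which Tcf4 held 27.2 and 29.3 TPM, while the defining marker Siglech was at 0.20 and 0.31 TPM. Messenger RNA of the mitochondrial genome held 2.81% of gene counts in replicate 1 and 6.85% in replicate 2.

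All 8 effector genes were high in the nucleoplasm. Their median level was 284 TPM in replicate 1 and 227 TPM in replicate 2, against 3.58 and 4.32 TPM over the 13265 protein-coding genes with a value above 0 in both libraries. Of the 8 genes, 6 reached 100 TPM in each library, a level reached by 2.00% of those protein-coding genes. All 8 reached 10 TPM in each library, as did 25.9% of protein-coding genes, and 69.5% of those genes reached 1 TPM. Together they held 1.32% of all gene counts in the first library (1.32 to 1.33, Wilson interval at 95%) and 0.932% in the second (0.928 to 0.936). Reads carried no molecular identifiers and are not independent molecules, so all intervals here describe counting error alone. In bulk RNA, fewer cells with a transcript and less of it per cell cannot be told apart.

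**Figure D1:**
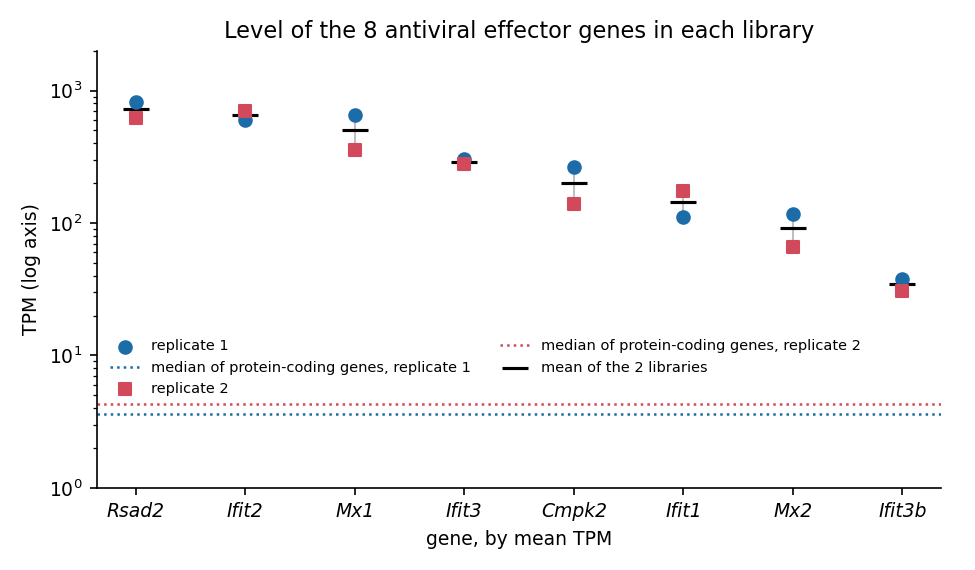
Level of each gene in TPM on a log axis, with replicate 1 as circles, replicate 2 as squares and the mean as a black bar. All 16 points lie above 30 TPM, while the dotted lines, the medians of protein-coding genes, lie at 3.58 and 4.32 TPM.

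Among the IFIT genes, Ifit2, whose protein binds RNA and can promote cell death, was at 601 TPM in replicate 1 and 706 TPM in replicate 2 (mean 654 ± 74.2, SD, n = 2). It ranked 29 and 32 from the top of the protein-coding genes. Ifit3 was at 305 and 278 TPM (mean 291 ± 19.0), and the scaled counts of the libraries are compared below. The human counterpart of its protein binds and stabilises IFIT1.

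Ifit1, which encodes a protein that binds RNA lacking the cap methylation of host messages, was at 110.1 TPM in replicate 1 and 176 TPM in replicate 2 (mean 143 ± 46.5). It was the lower of the pair Ifit1 and Ifit2, with Ifit2 5.46 times and 4.01 times its level. Ifit3b was the lowest of the 8, at 38.0 and 30.8 TPM (mean 34.4 ± 5.14). Even so, 93.3% and 89.6% of protein-coding genes lay below it.

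Ifit3 and Ifit3b are near-identical copies on chromosome 19 (mm10; Ifit3 at 34583531 to 34588731 and Ifit3b at 34607970 to 34613401, both on the plus strand). Their coding sequences of 1209 bases differed at 11 positions, an identity of 99.1%, whereas other pairs of IFIT members were 48.4% to 53.5% identical over aligned columns. Of all stretches of 100 bases in the transcript Ifit3-201, 31.7% also occur in Ifit3b-201, and 27.4% of those in Ifit3b-201 occur in Ifit3-201. The coding stretch with the most differences, bases 199 to 288 of the reading frame, is shown. Reads that lie within the coding sequence can be assigned to a copy only where the copies differ. Capitals mark the 4 bases that differ, at chr19:34587254-34587343 and chr19:34611624-34611713.
Ifit3: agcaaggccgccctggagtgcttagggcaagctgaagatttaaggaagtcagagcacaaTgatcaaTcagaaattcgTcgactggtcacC
Ifit3b: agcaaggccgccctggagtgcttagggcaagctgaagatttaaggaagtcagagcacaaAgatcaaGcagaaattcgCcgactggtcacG
Replicate 1 gave Ifit3 17911 counts and Ifit3b 2612, and replicate 2 gave 11772 and 1522. The deposited posterior SD of the count, which reflects the split of shared reads, was 17.1 and 13.1 for each copy. On the TPM scale Ifit3 stood 8.01 times above Ifit3b in replicate 1 and 9.03 times in replicate 2. In the second set of deposited transcript estimates, made from the read files and called read-based here, the ratios were 7.83 and 7.61. The order of the copies was thus the same in both tables. Reads that fall wholly in shared stretches were divided by the authors' software, so both values rest in part on that split.

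The promoters of the IFIT genes are shown because ISGF3 is known to act there. In the RefSeq promoter table (GRCm38.p6), 6 of the 8 genes had an entry, and 250 bases before each start were searched on both strands for the interferon response form GAAANNGAA, which reads TTCNNTTTC on the other strand. This form occurred in 7.13% of 32851 promoters, and 3 or more copies in 0.0578%. Ifit1, Ifit3 and Ifit3b held 3 copies each, of which 2 overlap in Ifit1. Rsad2 held 1, and none was found in the windows of Ifit2 or Cmpk2. The promoters are printed 5′ to 3′ on the gene's strand up to the annotated start of transcription, with the form in capitals.
Ifit1, chr19:34640770-34640870, plus strand: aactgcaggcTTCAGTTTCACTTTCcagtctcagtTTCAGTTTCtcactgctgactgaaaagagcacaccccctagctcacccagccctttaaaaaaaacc
Ifit3, chr19:34583364-34583528, plus strand: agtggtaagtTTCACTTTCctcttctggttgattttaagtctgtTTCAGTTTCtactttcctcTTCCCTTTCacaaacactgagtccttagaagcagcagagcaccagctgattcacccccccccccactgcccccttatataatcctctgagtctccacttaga
Ifit3b, chr19:34607760-34607956, plus strand: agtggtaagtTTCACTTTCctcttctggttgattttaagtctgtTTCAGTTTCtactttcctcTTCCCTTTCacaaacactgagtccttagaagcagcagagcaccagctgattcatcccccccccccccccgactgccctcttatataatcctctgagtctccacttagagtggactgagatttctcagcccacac
Rsad2, chr12:26456453-26456581, minus strand: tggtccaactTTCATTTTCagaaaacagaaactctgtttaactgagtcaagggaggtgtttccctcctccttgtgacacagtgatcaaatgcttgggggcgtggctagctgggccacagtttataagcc
Aligned end to end over the 250-base windows, the Ifit3 and Ifit3b promoters were 76.6% identical (282 columns). In the best local alignment, of 224 columns, they were 96.4% identical, with the same 3 forms. Only this form of the interferon-stimulated response element was searched, so the windows of Ifit2 and Cmpk2 may hold other forms. Whether these letters bear on the levels of the genes was not tested. Of the other motifs searched, the gamma-activated site TTCNNNGAA (7.02% of promoters) occurred in Ifit2 and the kappa B form GGGNNTTCC (4.98%) in none. The TATA box letters TATAAA (12.4%) occurred only in Rsad2, on the opposite strand to the gene, as TTTATA 10 to 5 bases before the start. Exact letters alone were searched, so tatataa near the start of the printed Ifit3 and Ifit3b promoters was not counted. A match is a run of letters and no measured binding site.

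Of the MX genes, Mx1 was at 656 TPM in replicate 1 and 359 TPM in replicate 2 (mean 508 ± 210.3, n = 2), and Mx2 at 117 and 65.6 TPM (mean 91.2 ± 36.1). Mx1 stood 5.62 and 5.47 times above Mx2, and both genes were higher in replicate 1. They lie on chromosome 16, Mx1 at 97447035 to 97462907 on the minus strand and Mx2 at 97535308 to 97560900 on the plus strand. C57BL/6 mice are known to carry defective alleles of both genes: a deletion of coding exons in Mx1 and an insertion that shifts the reading frame in Mx2. The transcript values below describe annotated forms, and their link to either allele was not tested.

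Mx1 has 10 annotated transcripts. In the alignment-based tables, the estimates on which the gene values rest, the highest in both libraries was Mx1-205, of the annotated type nonsense-mediated decay, at 327 and 197 TPM or 49.8% and 55.0% of the gene. Transcripts of that type end their reading frame early, ahead of a downstream exon junction, and are typically degraded during translation. All Mx1 transcripts of that type held 64.5% of Mx1 TPM in replicate 1 and 68.3% in replicate 2, and those of type protein coding 16.9% and 18.5%. Among 3278 protein-coding genes with at least 2 transcripts and 10 TPM, 1.71% were led by a nonsense-mediated decay transcript in both libraries, and the median share of that type was 0. Mx1-201, the protein-coding transcript with the longest reading frame (1881 bases), had 2.15 and 0.32 TPM.

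The reading frame of Mx1-205 is 927 bases long, against 1191 in Mx1-202, the highest protein-coding transcript at 98.1 and 61.2 TPM. Mx1-205 holds 2 exons that Mx1-202 lacks, of 79 bases (97452773 to 97452851) and 199 bases (97454025 to 97454223). Mx1-201 holds 4 exons between 97451599 and 97452497 that are absent from Mx1-205. The last 60 bases of the frame of Mx1-205 and Mx1-203, also of the decay type, are the same and are shown with the stop codon in capitals. They span 97452773 to 97452808 and 97451528 to 97451551 of the minus strand, with 311 bases from the stop to the last junction.
Mx1-205: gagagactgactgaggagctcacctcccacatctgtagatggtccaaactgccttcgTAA
In the read-based table the transcripts of Mx1 were ordered differently. Mx1-208, a retained-intron transcript of 352 bases, was highest in replicate 1 with 105.8 TPM and Mx1-203 in replicate 2 with 94.4 TPM. Mx1-205 had 27.6 and 9.60 TPM and Mx1-201 had 69.7 and 39.9 TPM. By read-based counts, Mx1-208 held 2.03% and 1.23% of Mx1, and Mx1-203 led both libraries with 35.5% and 43.4%. Mx1-201 held 31.3% and 21.1% of read-based counts but 0.531% and 0.133% of alignment-based counts, so the estimates disagree on it. The decay type held 32.3% and 43.7% of Mx1 there, against 1.48% of 2088 genes led by that type in both libraries. A large decay-type share of Mx1 was thus present in both tables, but the leading transcript was not the same. The share lay above that of 97.2% to 99.7% of genes in each library and table. Genes with no annotated transcript of that type count as 0 there, and the median share was 0. Rsad2, with decay-type shares of 4.94% and 7.08% in the alignment-based tables, lay above 83.4% and 87.0% of genes.

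Mx2, annotated as a polymorphic pseudogene, was led by Mx2-202 in both tables. Mx2-202 held 80.9 TPM in replicate 1 and 41.9 TPM in replicate 2, or 69.3% and 63.8% of the gene. Mx2-201, the only Mx2 transcript of type protein coding, held 0.42 TPM in replicate 1 and was listed at 0 in replicate 2. The transcripts are nearly the same length, and the junction that separates them is shown because the frame depends on it. Capitals mark the bases that the annotation places in different exons, at chr16:97552034-97552063 with chr16:97555959-97555990 for Mx2-201 and chr16:97552034-97552066 with chr16:97555961-97555990 for Mx2-202.
Mx2-201: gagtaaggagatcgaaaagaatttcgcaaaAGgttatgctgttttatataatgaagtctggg
Mx2-202: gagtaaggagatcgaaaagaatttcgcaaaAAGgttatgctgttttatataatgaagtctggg
These stretches are 62 and 63 bases long. The annotated coding part of Mx2-201 has 1965 bases and leaves 0 over after whole codons, and that of Mx2-202 has 1969 and leaves 1. Expected counts were 35.5 and 0 for Mx2-201 against 6882 and 2562 for Mx2-202, so nearly all counts of this pair went to the shifted form in each library. A short processed transcript, Mx2-203, held 23.2% and 30.9% of Mx2 TPM and 5.80% and 8.34% of its counts.

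Rsad2 was the highest of the 8 genes by mean, at 827 TPM in replicate 1 and 618 TPM in replicate 2 (mean 722 ± 148), and ranked 19 and 37 from the top. Cmpk2, which encodes a mitochondrial nucleotide kinase, was at 264 and 139 TPM (mean 202 ± 88.4). Rsad2 stood 3.13 times above Cmpk2 in replicate 1 and 4.44 times in replicate 2. The genes are transcribed away from each other on chromosome 12, with Rsad2 at 26442746 to 26456452 on the minus strand and Cmpk2 at 26469204 to 26479837 on the plus strand, and their starts are 12752 bases apart.

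Rsad2-201, the transcript that encodes viperin, held 94.96% and 92.92% of Rsad2 TPM in the alignment-based tables. The decay-type transcript Rsad2-202 held 4.94% and 7.08%. It has an extra exon of 435 bases (26451973 to 26452407), and its frame stops in that exon, 795 bases before the last junction. The last 60 bases of the frame are shown with the stop codon in capitals, from 26454018 to 26454024 and 26452355 to 26452407 on the minus strand.
Rsad2-202: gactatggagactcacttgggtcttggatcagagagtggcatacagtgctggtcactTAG
The read-based shares differed: Rsad2-201 held 54.1% and 63.3%, Rsad2-202 held 15.2% and 19.9%, and the short processed transcript Rsad2-203 held 30.7% and 16.8%, against 0.0979% and 0 in the alignment-based tables. Rsad2-201 led in both tables and both libraries. Rsad2-203 has 430 bases and held 2.37% and 1.34% of the read-based counts of Rsad2, against 74.3% and 73.1% for Rsad2-201.

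Cmpk2 was assigned mainly to a protein-coding and an intron-containing transcript in the alignment-based tables. In nucleoplasmic RNA these estimates cannot tell a retained intron from unspliced precursor. Cmpk2-201 held 146 TPM in replicate 1 and 88.1 TPM in replicate 2, or 55.3% and 63.3% of the gene. Retained-intron transcripts held 44.5% and 36.4%, above the medians of 19.4% and 14.0% over the 3278 genes and above 82.5% and 79.2% of them. Most of this was Cmpk2-204, at 107 and 49.2 TPM, which starts at 26470509 inside the first intron of Cmpk2-201 and holds 897 bases absent from it. In the read-based table retained-intron transcripts held 67.4% and 48.0% of Cmpk2, and the short Cmpk2-203 was the highest transcript of replicate 1. Cmpk2-203 has 330 bases and held 3.14% and 1.34% of the read-based counts, against 56.7% and 64.3% for Cmpk2-201. A retained-intron transcript led in both libraries for 7.02% of the 3278 genes in the alignment-based tables and for 10.7% of the 2088 genes in the read-based tables, and Cmpk2 was among them in neither. Ifit1, Ifit3 and Ifit3b have 1 annotated transcript each, and Ifit2-201 held 99.9% of Ifit2, so the tables could not split the IFIT genes into spliced and intron-containing RNA.

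**Figure D2:**
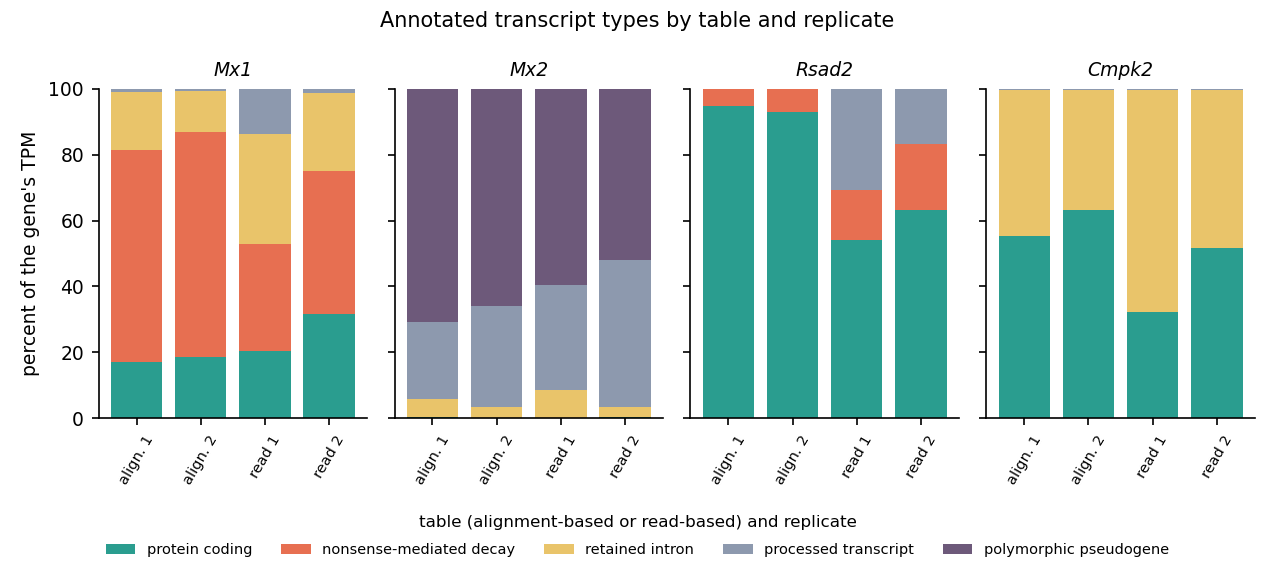
Percent of each gene's TPM by annotated transcript type, for alignment-based and read-based tables of replicates 1 and 2. Mx1 shows a decay-type share of 64.5% and 68.3% in the alignment-based tables and 32.3% and 43.7% in the read-based tables, and Mx2 is mostly of the polymorphic pseudogene type in all 4 columns.

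Placed by mean TPM, the 8 genes ran Rsad2, Ifit2, Mx1, Ifit3, Cmpk2, Ifit1, Mx2 and Ifit3b. Of the 7 neighbouring pairs, 3 kept their order in both libraries, with deposited credibility intervals that did not overlap: Mx1 above Ifit3, Ifit3 above Cmpk2 and Mx2 above Ifit3b. The other 4 pairs changed order between the libraries and do not differ beyond their spread. Rsad2 exceeded Ifit2 in replicate 1 and lay below it in replicate 2, as Cmpk2 did relative to Ifit1. The protein-coding genes outside the interferon lists with the most similar level, by distance in log2(TPM + 0.1) over the 2 libraries, were Saa3 for Rsad2, Tnf for Ifit2, Rsrp1 for Mx1, Fgl2 for Ifit3, Trafd1 for Cmpk2, C3ar1 for Ifit1, Gdf15 for Mx2 and Bfar for Ifit3b. Tnf, for example, was at 569 and 754 TPM.

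The libraries differed in these genes, in 1 direction for 7 of 8. Ratios were taken as replicate 2 over replicate 1 of counts scaled for library size and composition, on the log2 scale, with exact 95% counting intervals. The median ratio of the 8 genes was −0.64, against 0.02 over the 9675 genes whose mean count was at least 100. On this scale a ratio below 0 was found for 7 of the 8 and for 48.2% of the 9675 genes. Mx2 (−1.19, interval −1.25 to −1.13), Cmpk2 (−1.17, −1.20 to −1.13) and Mx1 (−1.04, −1.07 to −1.02) lay beyond 2-fold lower in replicate 2, as did 1.82% of the genes. None of the 8 lay beyond 2-fold higher, as 1.67% of the genes did. Rsad2 had a ratio of −0.70, near the 5th percentile of all genes (−0.71).

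The IFIT genes differed less. Ifit3b had a ratio of −0.58 (−0.67 to −0.49) and Ifit3 of −0.41 (−0.44 to −0.37). Ifit2 was nearly level at −0.05, with 83685 and 70519 counts. Ifit1 was the exception, with 10374 counts in replicate 1 and 11905 in replicate 2 and a ratio of 0.40 (0.36 to 0.43), above 84.1% of all genes. On the TPM scale the median of these 9675 genes was itself shifted by 0.26 between the libraries, so that Ifit2 had a ratio of 0.23, just under the shift. Relative to the shift of each scaling tried, 7 of 8 genes were lower in replicate 2 and Mx1, Mx2 and Cmpk2 were beyond 2-fold.

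**Figure D3:**
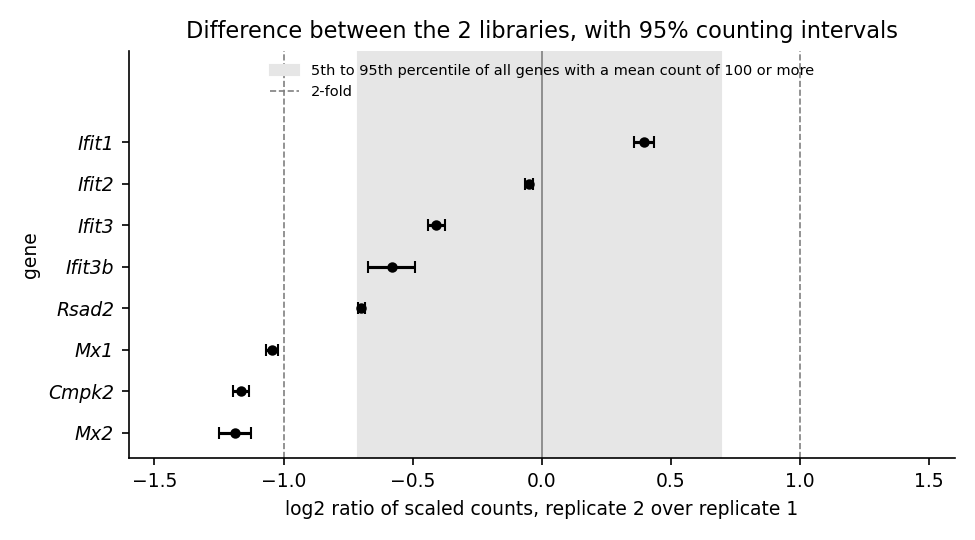
Log2 ratio of scaled counts, replicate 2 over replicate 1, for each gene (points) with 95% counting intervals (bars). Mx2, Cmpk2 and Mx1 lie left of the dashed 2-fold line at −1 and outside the grey band, which spans the 5th to 95th percentile of all genes (−0.71 to 0.70), and Ifit1 alone lies right of 0 on this scale, whereas on the TPM scale Ifit2 does too (0.23).

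Other measures moved between the libraries as well. The mitochondrial share was higher in replicate 2 and the RNA input was lower. The 10 macrophage markers summed to 2148 TPM in replicate 1 and 3588 TPM in replicate 2, of which Lyz2 alone held 1023 and 1953 TPM. On the TPM scale the median log2 ratio of all genes with a mean count of at least 100 was 0.26. By scaled counts, the median log2 ratio of the 10 markers was 0.11, with 3 of 10 below 0, against 48.2% of those genes. The part of any of these measures in the ratios of the effector genes was not tested.

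Other genes of the interferon pathway were described by lists. None of 8 type I interferon ligand genes reached 1 TPM in both libraries, against 69.5% of protein-coding genes with a value above 0 in both. Of the 8, 7 were below 1 TPM in both libraries and 5 had a count of 0 in both. The 69.5% leaves out genes at 0, while the list keeps them, so the list and that share rest on unlike sets. Shares of all genes below 1 TPM or at 0 in both libraries were not computed. A count of 0 allows up to 0.126 and 0.145 CPM. The highest was Ifnb1, interferon beta, with 72 counts (3.57 TPM) in replicate 1 and 10 counts (0.68 TPM) in replicate 2, a log2 ratio of −2.59 (−3.77 to −1.69). Ifnk, an interferon of skin, had 6 and 2 counts and Ifna2 had 1 and 0. Each of the 8 effector genes stood above every ligand in both libraries. Ifnb1 was thus well above the floor in replicate 1 and lower in replicate 2, while the other ligands had at most 6 counts.

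Receptor and kinase genes were at moderate levels, with medians of 40.2 and 42.1 TPM over 4 genes. Ifnar1 (48.7 and 56.7 TPM) and Ifnar2 (35.0 and 53.0 TPM), the receptor chains, were above Jak1 (22.5 and 25.6 TPM), while Tyk2 was at 45.5 and 31.2 TPM. The 8 genes of ISGF3 and the inducing factors had medians of 131 and 95.7 TPM. Of these, 4 reached 100 TPM in each library, as did 2.00% of protein-coding genes with a value above 0 in both. Irf7, the factor that amplifies interferon genes, was highest at 398 and 261 TPM, and Irf1 was at 357 and 229.9 TPM. Irf3 (32.6 and 23.7 TPM) and Irf9 (25.2 and 23.2 TPM) were lowest, the latter encoding the DNA-binding part of ISGF3. All 8 had a ratio below 0, as did 48.2% of all genes with a mean count of at least 100. None lay beyond 2-fold, against 1.82% of those genes lower and 1.67% higher. The median of the 8 was −0.59, close to the −0.64 of the effector genes.

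Genes that restrain the response had medians of 54.7 and 48.0 TPM over 5 genes. Socs3 (81.8 and 83.5 TPM), Usp18, which blocks the receptor (65.7 and 50.1 TPM), and the phosphatase gene Ptpn6 (54.7 and 48.0 TPM) led. Ptpn11 (6.39 and 7.87 TPM) and Socs1 (2.78 and 1.15 TPM) were lowest. Of 9 genes of RNA sensors, adaptors and kinases, Ikbke (308 and 217 TPM) and Ddx58, encoding RIG-I (128 and 111 TPM), were highest. The adaptor genes Mavs (5.79 and 8.08 TPM) and Ticam1, the gene of TRIF (4.08 and 5.66 TPM), were lowest. Ifih1, the gene of MDA5, had 69.3 and 65.3 TPM.

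Among 36 other antiviral effector genes the medians were 79.0 and 98.5 TPM. Of the 36, 16 reached 100 TPM in each library, as did 2.00% of protein-coding genes with a value above 0 in both. Oasl2 (346 and 382 TPM), Parp14 (339 and 311 TPM) and Samhd1, a nucleotide hydrolase (303 and 245.5 TPM), were highest, and Ifitm1 (4.30 and 5.23 TPM) and Ifi44l (0 counts in both) lowest. Of the 8 genes described here, 3 in replicate 1 (Rsad2, Mx1 and Ifit2) and 2 in replicate 2 (Ifit2 and Rsad2) stood above all 36. The list's ratios were nearer to 0, with a median of −0.25. Of 34 genes with enough counts, 26 were below 0, as were 48.2% of all genes with a mean count of at least 100. In each direction 1 gene of the list lay beyond 2-fold, against 1.82% of those genes lower and 1.67% higher. The lower was Isg15 (195 and 113 TPM, ratio −1.05, interval −1.13 to −0.96). The higher was Ifitm2 (23.9 and 62.5 TPM, ratio 1.14, interval 0.97 to 1.32). Each interval reaches inside 2-fold. Both genes were chosen after their values were seen. Whether the 8 genes differ from this list between the libraries was not tested.

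**Figure D4:**
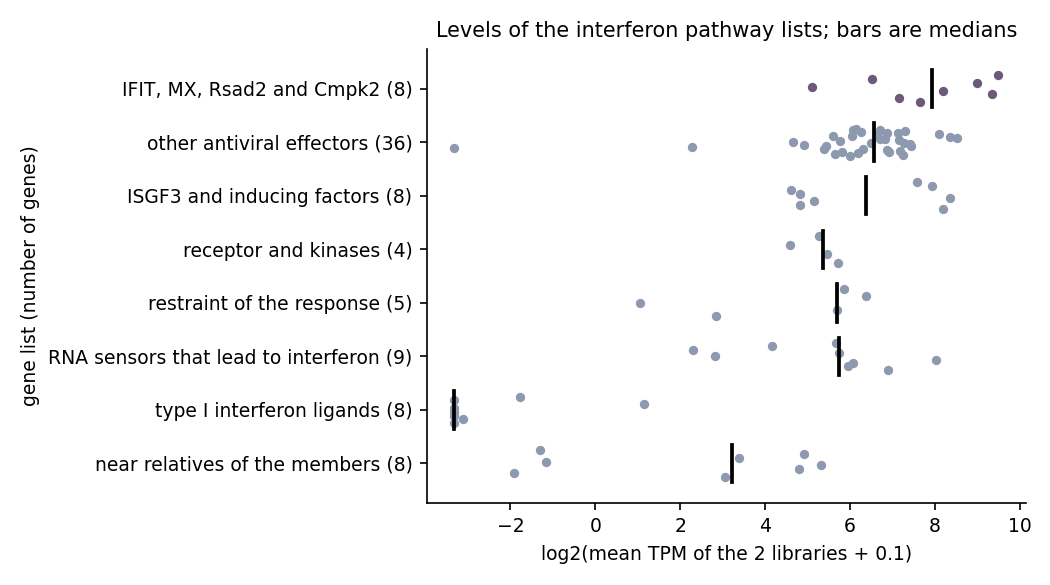
Mean level of each gene of 8 lists on the log2(TPM + 0.1) scale, 1 point per gene, with black bars for list medians. The bar of IFIT, MX, Rsad2 and Cmpk2 lies farthest right and that of the interferon ligands farthest left, while the 36 other effectors overlap the 8 genes and include Ifi44l at 0 counts.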

How the data were processed

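Nucleoplasmic RNA was measured in 2 libraries, each with a gene table and 2 transcript tables. Per the file headers and notes, tables are on mm10 with GENCODE M21; for aligner, quantification software, versions and strand setting, "not given in the sources used here" applies. Deposited alignment-based tables hold expected counts, which share ambiguous reads among genes, the authors' TPM with credibility bounds (which in part lie below the TPM they belong to), FPKM, and the percent of gene TPM per transcript, recomputed here. The deposited read-based tables hold estimated counts and TPM. Expected counts were rounded to whole numbers. Rows that name no gene (26345) held 1.10% and 0.267% of counts and were left out.

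Library sizes were multiplied by the TMM factors 0.997 and 1.003 (edgeR 4.0.16), and 0.5 was added to each count before the ratio. The ratio was tested on simulated data. With 1 group no test between groups was made. Sequences came from the GENCODE transcripts and the RefSeq promoter table, and identity from global alignment with Biopython 1.88. Mx1 and Mx2 have no promoter shown. No member overlaps another annotated gene. Named were all 8 genes, the 3 highest and 2 lowest of each list by mean TPM, and the gene nearest in level to each member; 1 gene that this rule gave is not reported here. Members, lists and markers were chosen with earlier results of these data known. As alternatives, size factors of DESeq2 1.42.0, plain library sizes, other priors, pseudocounts, filters and units, read-based tables and each library alone were tried. Depth is given as gene counts per library in the results.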

Additional observations from a re-analysis of the deposited data

How the results depend on the processing

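The level of the 8 genes, as the median percent of protein-coding genes that lie below them, was 99.2%, and was 98.8% when only genes at 1 TPM or more were counted. It ranged from 99.1% to 99.5% with 1 library left out. The count at 100 TPM or more (6) ranged from 5 in the read-based table to 8 when TPM was rescaled over protein-coding genes. That rescaling multiplies all genes of a library by the same factor. The share of protein-coding genes at 100 TPM (2.00%) was computed for the main setting only, so the 5 and the 8 have no share beside them. The median replicate ratio of −0.64 became −0.50 with read-based counts, −0.36 with TPM and −0.92 with TPM over protein-coding genes. No member was beyond 2-fold lower on the plain TPM scale (0 against 3), where the median of genes with a mean count of at least 100 was shifted by 0.26. The share of those genes beyond 2-fold on that scale was not computed. The ratio of Ifit2 changed sign, to 0.016 with read-based counts and 0.23 with TPM. The share of all genes beyond 2-fold lower was 1.82%, 5.08% at a mean count of 10 or more and 17.0% with no filter, where low counts enter. The decay-type share of Mx1, 66.4% on average, was 38.0% in the read-based table and 78.6% as a share of counts, an alternative chosen after seeing the data. The median of the 36 other effectors was 88.7 TPM and 61.9 TPM in the read-based table. Where no cause is named, the cause was not tested. No paired analysis was possible because there is only 1 group.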

Other observations

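The IFIT genes sit beside relatives, and Ifit1bl2 had a very different level from its neighbour Ifit1. Along chromosome 19 (mm10), Ifit1bl2 is transcribed from the minus strand and ends its gene at 34640743, so that its start lies 128 bases from that of Ifit1. Ifit1bl2 had 35 counts (0.29 TPM) in replicate 1 and 28 counts (0.32 TPM) in replicate 2, while Ifit1 had 10374 and 11905 counts (110.1 and 176 TPM). Of the stretches of 100 bases in Ifit1-201, 3.29% also occur in Ifit1bl2-201, so a small part of the counts could be exchanged between them. Ifit1bl1, between Ifit3 and Ifit3b, had 37.9 and 21.9 TPM, against 38.0 and 30.8 TPM for Ifit3b. The log2 ratio of Ifit1bl1, replicate 2 over replicate 1, was −1.07 (−1.17 to −0.97), lower than that of any IFIT gene described in the report. Over the 8 relatives the median level was 8 TPM in replicate 1 and 10.5 TPM in replicate 2. Dnm2 (41.6 and 38.4 TPM), Ifit1bl1 and Dnm1l (22.0 and 33.3 TPM) were highest and Dnm1 (0.17 and 0.16 TPM) lowest.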
